A study of Mus musculus with 10 samples.

Results

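Lymph node stroma and homing genes were examined here as a group of 10 genes, chosen by name from the 17864 genes of the deposited table: the chemokines Ccl19, Ccl21a and Cxcl13, the lymphotoxin genes Lta and Ltb, the high endothelium genes Glycam1, Madcam1 and Chst4, and the chemokine receptors Ccr7 and Cxcr5. All 10 were found in the table, and 8 passed the filter on low counts (all except Madcam1 and Chst4). RNA of whole 4T1 tumors was sequenced, so that tumor cells and every other cell of the sample were read together. 4T1 is a mouse mammary carcinoma line. Cells of both groups carried Cas9, together with either a control guide RNA (sgCon, 5 tumors) or one that targets Wwtr1, which encodes TAZ (sgTaz, 5 tumors). Per the methods, 100000 cells were injected into mammary fat pad number 4 of female mice aged 6 to 8 weeks. Both SCID and BALB/c mice were used in the study, and the labels do not say which strain bore the sequenced tumors. Whether each cell line was a single clone is not given in the sources used here, and Cas9 was only in the injected cells, so that stromal and immune cells of the host kept Wwtr1.

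In a lymph node, fibroblastic reticular cells release CCL19 and CCL21, and high endothelial venules release CCL21. Both chemokines draw T cells and dendritic cells that carry the receptor CCR7. Follicular stroma releases CXCL13, which draws B cells that carry CXCR5. Lymphotoxin made by lymphocytes acts on the lymphotoxin β receptor of these stromal cells and keeps up the genes of their chemokines, through NF-κB proteins that include RelB and p52. High endothelial venules present sulfated mucins, among them GlyCAM-1 and MAdCAM-1, to adhesion receptors of lymphocytes in the blood, and the enzyme encoded by Chst4 adds the sulfate to their sugar chains. The same genes are switched on in tertiary lymphoid structures, and the mammary fat pad injected here normally holds the inguinal lymph node.

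Total counts per tumor were 14753922 to 19595821 (median 17155103) in sgCon tumors and 12185383 to 18395558 (median 15566873) in sgTaz tumors. Levels are given below as CPM, counts scaled to a TMM-normalized library of 1000000. A count of 0 allows up to 3 counts, which is between 0.153 and 0.246 CPM of the total count of a tumor, a limit that covers counting error only. The tumors were sorted by their labels, and Wwtr1 was read first as a check of them. It had 86.6 to 139 CPM over the sgTaz tumors (median 104) and 115 to 192 CPM over the sgCon tumors (median 171), and the groups overlapped, with sgTaz tumor 4 above sgCon tumor 3. With all tumors, its adjusted p was not below 0.05 in edgeR's quasi-likelihood test. The epithelial genes of 4T1 cells were present in all tumors, with a summed level of at least 1490 CPM over Epcam, Krt8, Krt18, Krt19, Krt14, Cdh1, Cldn4 and Cldn7.

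Before the single genes, 2 tumors need to be named. sgTaz tumor 5 stood apart from the other 4 sgTaz tumors, with the highest value of the group in 10 of the 10 genes, a pattern that 22.4% of all genes tested also had. sgCon tumor 3 was the highest sgCon tumor in 10 of the 10 genes (28.9% of genes tested), and sgCon tumor 4 the lowest in 10 of the 10 (26.0%). All 10 genes had these 3 features at once, against 7.23% of genes tested. The 8 genes tested and the lists of other genes are therefore given with all tumors and also without sgTaz tumor 5, where 0.868% of genes were called lower, and the 8 genes tested also without sgCon tumor 3. sgTaz tumor 5 was set aside for its level in these same genes, so that values and counts without it are a description and support nothing. Fewer cells of a type and less RNA per cell cannot be told apart in whole tumors, here and in all that follows.

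**Figure D1:**
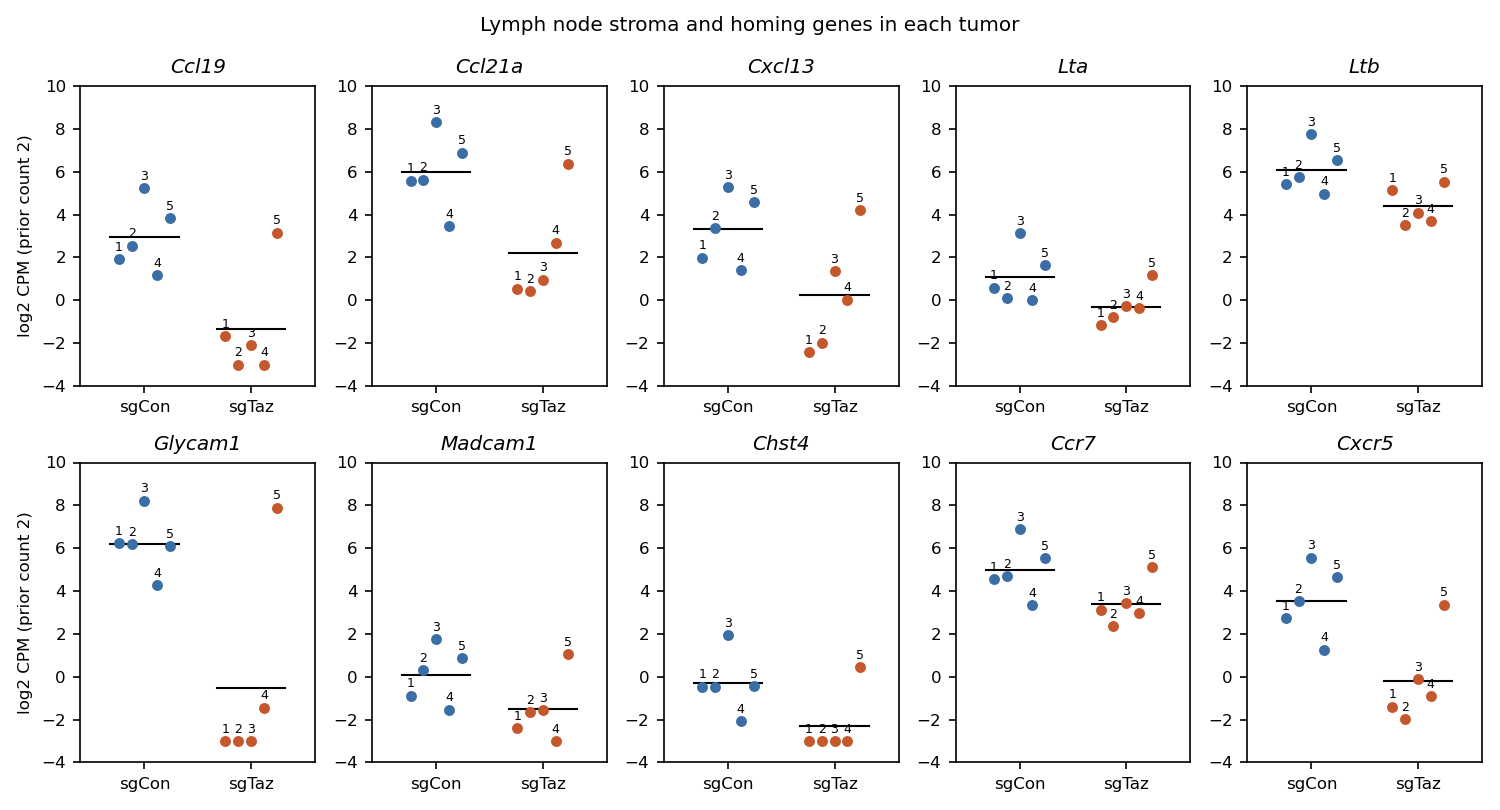
Level of each of the 10 genes in each tumor, as log2 CPM with a prior count of 2 (vertical axis), by group (horizontal axis). Each point is 1 tumor with its replicate number, and the line is the mean of the group (n = 5). In each panel sgTaz tumor 5 is the highest sgTaz tumor, sgCon tumor 3 the highest sgCon tumor and sgCon tumor 4 the lowest.

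Ccl19, Ccl21a and Cxcl13, the stromal chemokines, were low in 4 of the 5 sgTaz tumors and present in all sgCon tumors, but none of the 3 passed the test with all 10 tumors. Ccl19 (ENSMUSG00000071005.7) lies on the minus strand at chr4:42754525-42756577 (GRCm38). It had 3.66, 5.71, 37.5, 2.11 and 14.2 CPM in sgCon tumors 1 to 5, and 0.191, 0, 0.107, 0 and 8.80 CPM in sgTaz tumors 1 to 5. The 4 low sgTaz tumors held 5 counts of Ccl19 together and lay below every sgCon tumor, while sgTaz tumor 5 with 121 counts lay above 3 of the 5 sgCon tumors. The log2 fold change, sgTaz against sgCon, was -2.82 (standard error, SE, 1.29; adjusted p = 0.232, edgeR's quasi-likelihood test). Without sgTaz tumor 5 it was -7.17 (SE 1.21, adjusted p = 0.0410, same test), a fitted value that depends on the prior count for a gene this close to 0. Without sgCon tumor 3 it was -1.83 (adjusted p = 0.447, edgeR).

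Ccl21a (ENSMUSG00000094686.1) lies near it, on the minus strand at chr4:42772860-42773993. It had 47.9, 49.6, 319, 10.9 and 119 CPM in sgCon tumors 1 to 5, and 1.34, 1.23, 1.82, 6.31 and 82.8 CPM in sgTaz tumors 1 to 5. Again the 4 other sgTaz tumors lay below every sgCon tumor, and only sgTaz tumor 5 overlapped with them. Its log2 fold change was -2.56 (SE 1.21, adjusted p = 0.245, edgeR), -5.41 without sgTaz tumor 5 (SE 1.02, adjusted p = 0.0429, edgeR) and -1.60 without sgCon tumor 3 (adjusted p = 0.467, edgeR). The values of both CCR7 ligands are uncertain, because the mouse genome holds near-identical copies of them. Of all windows of 50 bases in their transcripts, 52.0% for Ccl19 and 71.6% for Ccl21a also occur in transcripts of other genes, among them Ccl21b for Ccl21a, and how reads with several matches were counted is not given in the sources used here. The other 8 genes shared no such window.

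Cxcl13 (ENSMUSG00000023078.6), the ligand of CXCR5, lies on the plus strand at chr5:95956951-95961068. It had 3.84, 10.1, 39.0, 2.50 and 23.9 CPM in sgCon tumors 1 to 5, and 0.0636, 0.129, 2.41, 0.890 and 18.3 CPM in sgTaz tumors 1 to 5. sgTaz tumor 3, with 45 counts, reached nearly the level of sgCon tumor 4, which also had 45 counts in a library of similar size. The log2 fold change was -1.87 (SE 1.15, adjusted p = 0.361, edgeR), -1.20 without sgCon tumor 3 (adjusted p = 0.588, edgeR) and -4.12 without sgTaz tumor 5 (SE 1.04, adjusted p = 0.0776, edgeR). Cxcl13 passed in none of these comparisons, and whether it differs from Ccl19 and Ccl21a was not tested. An exact two-sided permutation test of mean log2 CPM gave p = 0.0317 for Ccl19, 0.0397 for Ccl21a and 0.0635 for Cxcl13, with adjusted values of 0.218, 0.234 and 0.270 over all genes tested. The smallest p that 5 tumors against 5 allow in this test is 0.00794, and no gene passed it after adjustment.

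The 250 bases before the RefSeq start sites (GRCm38.p6) of Cxcl13 and Ccl19 are shown because both genes are textbook targets of the RelB and p52 route. Capitals mark a RelB type site in Cxcl13, at -114 to -105 from the start, and a match of its relaxed form in Ccl19, at -223 to -214, in which the letters 4 to 6 of the site are left free. The stretches are chr5:95956689-95956938 on the plus strand and chr4:42756366-42756615 on the minus strand, each written 5′ to 3′ on the strand of the gene.
Cxcl13: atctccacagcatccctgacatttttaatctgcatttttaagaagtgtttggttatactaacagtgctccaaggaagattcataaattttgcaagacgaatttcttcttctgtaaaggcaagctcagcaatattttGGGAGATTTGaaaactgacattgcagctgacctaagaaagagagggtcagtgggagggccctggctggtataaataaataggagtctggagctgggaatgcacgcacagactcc
Ccl19: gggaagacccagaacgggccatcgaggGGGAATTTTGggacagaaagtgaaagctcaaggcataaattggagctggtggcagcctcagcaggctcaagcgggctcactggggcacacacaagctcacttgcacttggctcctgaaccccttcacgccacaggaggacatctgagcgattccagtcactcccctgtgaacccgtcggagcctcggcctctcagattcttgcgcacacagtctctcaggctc

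Both strands of the promoters of 8 of the 10 genes were searched, those of Ccr7 and Cxcr5 being named only. The site as it stands in Cxcl13 was in the promoter of 1 of the 8 genes (Cxcl13) and in 0.0707% of 32536 promoters of the same length. Its match in Cxcl13, strict or relaxed, holds by construction, and nothing is read from the difference to the share of all promoters. The relaxed form, chosen after the Ccl19 promoter had been seen, was in 2 of the 8 genes (Cxcl13, at the same site, and Ccl19) and in 3.95% of promoters. A match is a description of letters, and binding was not measured here.

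Lta and Ltb encode the subunits of membrane lymphotoxin and are made by lymphocytes, not by stroma. Lta (ENSMUSG00000024402.5) lies on the minus strand at chr17:35203165-35205351. It had 1.38, 0.951, 8.67, 0.888 and 3.01 CPM in sgCon tumors 1 to 5, and 0.318, 0.452, 0.696, 0.647 and 2.11 CPM in sgTaz tumors 1 to 5. The 4 low sgTaz tumors were again below every sgCon tumor, but the gap was narrow, at 13 counts in sgTaz tumor 3 against 16 in sgCon tumor 4. Its log2 fold change was -1.82 (SE 0.72, adjusted p = 0.184, edgeR), and -2.47 without sgTaz tumor 5 (SE 0.75, adjusted p = 0.111, edgeR). Without sgCon tumor 3 it was -0.87 (adjusted p = 0.415, edgeR), and every sgTaz tumor but tumor 5 was still below the 4 other sgCon tumors.

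Ltb (ENSMUSG00000024399.5) lies on the plus strand at chr17:35194439-35196320, in the same cluster. It had 42.4, 53.3, 218, 31.3 and 92.9 CPM in sgCon tumors 1 to 5, and 35.3, 11.1, 16.8, 12.7 and 46.3 CPM in sgTaz tumors 1 to 5. Ltb differed from the genes above in that sgTaz tumor 1 also reached the range of the sgCon tumors, and in that sgTaz tumor 5 exceeded the next sgTaz tumor only 1.31-fold. Its log2 fold change was -1.84 (SE 0.57, adjusted p = 0.121, edgeR), -2.20 without sgTaz tumor 5 (SE 0.59, adjusted p = 0.0876, edgeR) and -1.16 without sgCon tumor 3 (adjusted p = 0.209, edgeR). It had the lowest unadjusted p of the group. The promoter of Ltb is shown for its NF-κB motif, on the opposite strand at -87 to -78 and in capitals, within chr17:35194257-35194506 on the plus strand (GRCm38.p6). That of Madcam1, with 2 such motifs at -83 to -74 and -70 to -61, is given with it, from chr10:79664309-79664558 on the plus strand.
Ltb: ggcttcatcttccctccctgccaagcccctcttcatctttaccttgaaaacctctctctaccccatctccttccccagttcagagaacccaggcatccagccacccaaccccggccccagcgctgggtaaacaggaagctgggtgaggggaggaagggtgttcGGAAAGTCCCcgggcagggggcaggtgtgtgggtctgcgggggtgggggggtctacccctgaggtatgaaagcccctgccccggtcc
Madcam1: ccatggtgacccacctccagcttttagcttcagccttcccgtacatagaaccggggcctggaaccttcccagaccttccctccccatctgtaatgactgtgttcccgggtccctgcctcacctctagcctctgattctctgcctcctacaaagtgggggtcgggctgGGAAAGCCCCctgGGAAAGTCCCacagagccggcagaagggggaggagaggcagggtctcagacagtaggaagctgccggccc

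The NF-κB motif was found in the promoters of these 2 of the 8 genes and in 7.28% of all 32536 promoters, and no match of it overlapped a match of the site types above. In Ccl21a, Lta, Glycam1 and Chst4 none of the 3 motifs was found in this window.

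Glycam1, Madcam1 and Chst4 are genes of the high endothelial venule, and Glycam1 and Chst4 were at or near 0 in 4 of the 5 sgTaz tumors. Glycam1 (ENSMUSG00000022491.5), on the minus strand at chr15:103562759-103565081, encodes a mucin that these venules present to lymphocytes. It had 75.5, 72.7, 298, 19.3 and 67.8 CPM in sgCon tumors 1 to 5. In sgTaz tumors 1 to 3 it had 0 counts, in sgTaz tumor 4 it had 3 counts, and in sgTaz tumor 5 it had 3252 counts, or 237 CPM. The level in sgTaz tumor 5 was above 4 of the 5 sgCon tumors and 3.25 times their median, whereas the 4 other sgTaz tumors were at or near the limit of detection. The log2 fold change over all tumors was -1.18 (SE 1.57, adjusted p = 0.693, edgeR). Without sgTaz tumor 5 the fitted value was -10.89 (adjusted p = 0.0410, edgeR), which depends on the prior count and is no bound, and without sgCon tumor 3 it was -0.32 (adjusted p = 0.933, edgeR). The exact permutation test of log2 CPM, in which the 4 tumors near 0 weigh more, gave p = 0.0397 (adjusted p = 0.234). Glycam1 is also known as a product of lactating mammary epithelium, and the milk genes are given further below for that reason.

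Madcam1 and Chst4 were below the filter. Madcam1 (ENSMUSG00000020310.9, plus strand, chr10:79664559-79668537), the ligand of integrin α4β7, had 7, 22, 52, 4 and 25 counts in sgCon tumors 1 to 5, and 1, 3, 4, 0 and 27 counts in sgTaz tumors 1 to 5. Chst4 (ENSMUSG00000035930.9, minus strand, chr8:110029153-110039740), the sulfotransferase, had 10, 12, 60, 2 and 9 counts in sgCon tumors 1 to 5. In sgTaz tumors 1 to 4 it had 0 counts each, and in sgTaz tumor 5 it had 17. In both, as in Glycam1, the CPM of sgTaz tumor 5 lay above 4 of the 5 sgCon tumors, at far lower counts. With no filter and all 10 tumors, the log2 fold change was -1.43 for Madcam1 (adjusted p = 0.413, edgeR) and -2.19 for Chst4 (adjusted p = 0.328, edgeR).

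Ccr7 and Cxcr5, the receptors on lymphocytes, had the sgCon tumors in the same order as the chemokines, while the order of sgTaz tumors 1 to 4 differed from gene to gene. Ccr7 (ENSMUSG00000037944.8), on the minus strand at chr11:99144196-99155077, guides T cells and mature dendritic cells. It had 23.5, 25.8, 119, 9.99 and 45.7 CPM in sgCon tumors 1 to 5, and 8.59, 4.97, 10.7, 7.77 and 34.9 CPM in sgTaz tumors 1 to 5. All 5 sgTaz tumors had Ccr7, and sgTaz tumor 3 was above sgCon tumor 4, so that no clear gap lay between the groups. The log2 fold change was -1.75 (SE 0.68, adjusted p = 0.175, edgeR), -2.47 without sgTaz tumor 5 (SE 0.63, adjusted p = 0.0788, edgeR) and -0.96 without sgCon tumor 3 (adjusted p = 0.360, edgeR).

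Cxcr5 (ENSMUSG00000047880.15), on the minus strand at chr9:44511787-44561877, guides B cells and follicular T cells, and shares 110 exon bases with Bcl9l on the opposite strand. It had 6.49, 11.4, 47.1, 2.28 and 25.1 CPM in sgCon tumors 1 to 5, and 0.255, 0.129, 0.804, 0.405 and 10.2 CPM in sgTaz tumors 1 to 5. The 4 low sgTaz tumors, with 26 counts together, were below every sgCon tumor. The log2 fold change was -2.99 (SE 1.10, adjusted p = 0.161, edgeR), the lowest of the 8 genes tested. It was -5.46 without sgTaz tumor 5 (SE 0.96, adjusted p = 0.0410, edgeR) and -2.27 without sgCon tumor 3 (adjusted p = 0.282, edgeR). The exact permutation test gave p = 0.0238 for Cxcr5 (adjusted p = 0.205) and 0.0873 for Ccr7 (adjusted p = 0.306).

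Counted over the group, 8 of the 8 genes tested had a log2 fold change below 0, where 53.0% of all 14816 genes tested did, with a median of -1.85 against -0.019 for all genes tested. An adjusted p below 0.05 with edgeR was reached by 0 of the 8, and by 0.0% of all genes tested in this direction. At an unadjusted p below 0.05 there were 4 of the 8 (Lta, Ltb, Ccr7 and Cxcr5), against 11.9% of all genes tested. DESeq2, the tool named in the methods, called 0 of 10 genes, against 3.47% of its genes called lower, with 5 of the 10 at an unadjusted p below 0.05, against 11.3%. limma-voom with sample quality weights called 5 of the 8 (Ccl19, Ccl21a, Ltb, Glycam1 and Cxcr5), against 5.80% of all genes tested. For Ccl19 and Glycam1, near 0 in sgTaz tumors 1 to 4, its values depend on the small count added before the log. Without sgTaz tumor 5, edgeR called 4 of the 8 (Ccl19, Ccl21a, Glycam1 and Cxcr5), against 0.868% of genes. Without sgCon tumor 3 it called 0 of the 8, against 0.0134% of genes, with 1 (Ltb) at an unadjusted p below 0.05, against 9.73%. With all 10 tumors no gene of the group had groups free of overlap (2.13% of genes tested had, with sgTaz lower), and without sgTaz tumor 5 there were 8 of the 10 genes (all except Ltb and Ccr7), against 4.95% of genes tested in that comparison. Since sgTaz tumor 5 was the highest of its group in all 10 genes, leaving it out favours this count by construction, and nothing is read from the difference to the share of all genes. Since a gene that is near 0 in 1 group enters the test through the other group, the direction over the genes that passed the filter is a description.

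**Figure D2:**
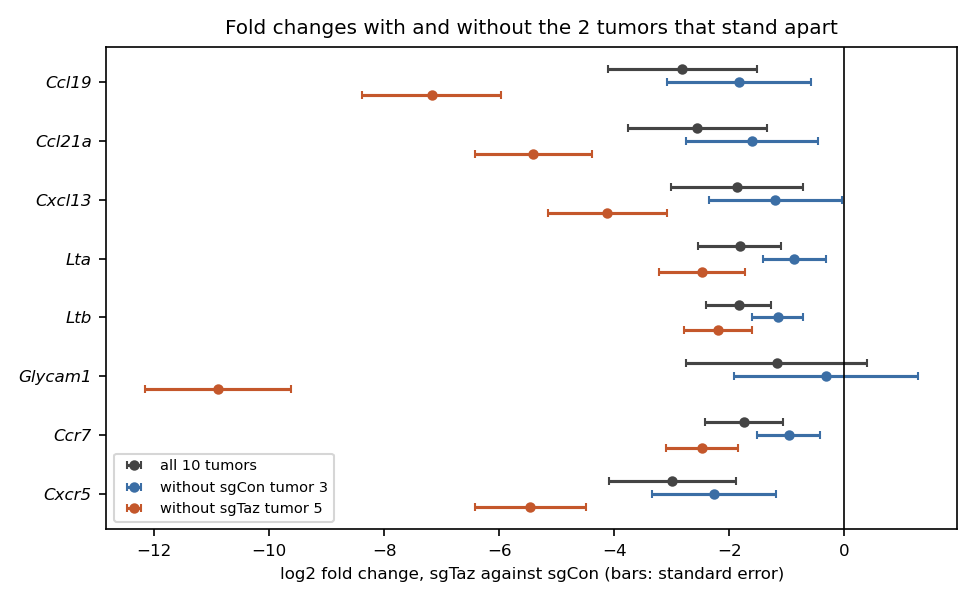
Log2 fold change of the 8 genes tested, sgTaz against sgCon (horizontal axis, bars are the standard error from edgeR), with all 10 tumors, without sgCon tumor 3 and without sgTaz tumor 5. Values without sgTaz tumor 5 lie at -10.89 for Glycam1 and -7.17 for Ccl19 and move least for Ltb, from -1.84 to -2.20.

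The sgCon tumors were ordered alike by most of the 10 genes. From lowest to highest, they ran 4, 1, 2, 5 and 3 in 8 of the 10 genes, an order held by 4.28% of genes tested. The exceptions were Lta, in which tumors 1 and 2 changed places, and Glycam1, in which tumor 5 came second and tumors 1 and 2 changed places. The span from sgCon tumor 4 to sgCon tumor 3 was 29.1-fold for Ccl21a, 20.7-fold for Cxcr5, 17.8-fold for Ccl19, 15.6-fold for Cxcl13 and 15.4-fold for Glycam1. It was 11.9-fold for Ccr7, 9.76-fold for Lta and 6.95-fold for Ltb. For the genes below the filter, the span was 33.7-fold for Chst4 and 14.6-fold for Madcam1, at low counts. sgTaz tumor 5 lay at 1.54 times the sgCon median for Ccl19, 1.67 times for Ccl21a, 1.82 times for Cxcl13 and 1.53 times for Lta. It lay at 1.35 times for Ccr7, 3.25 times for Glycam1, 1.78 times for Madcam1 and 2.06 times for Chst4. For Ltb it lay at 0.869 times and for Cxcr5 at 0.897 times the sgCon median.

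Summed over the 10 genes, sgCon tumors 1 to 5 had 206, 231, 1092, 79.7 and 394 CPM. sgTaz tumors 1 to 5 had 46.1, 18.2, 33.6, 29.0 and 443 CPM. The sum in sgTaz tumor 5 was above those of 4 of the 5 sgCon tumors.

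Ratios of counts show where the genes did not move as a block. For each count of Ccl21a there were 0.0764 to 0.193 counts of Ccl19 in the sgCon tumors and 0.106 in sgTaz tumor 5. In sgTaz tumors 1 to 4 there were 0.143, 0, 0.0588 and 0, from 3 or fewer counts of Ccl19 each. For Cxcl13 there were 0.0802 to 0.228 counts per count of Ccl21a in sgCon tumors and 0.221 in sgTaz tumor 5. In sgTaz tumors 1 to 4 there were 0.0476, 0.105, 1.32 and 0.141, with 45 counts of Cxcl13 and 34 of Ccl21a in sgTaz tumor 3. Glycam1 departed from Ccl21a, with 0.571 to 1.77 counts per count of Ccl21a in sgCon tumors and 2.86 in sgTaz tumor 5. In sgTaz tumors 1 to 4, in which 152 counts of Ccl21a remained, only 3 counts of Glycam1 were found. Ccr7 was set beside a gene of its cells and had 0.814 to 1.29 counts per count of the T cell gene Cd3e in sgCon tumors, 1.20 in sgTaz tumor 5 and 0.538 to 0.862 in the other sgTaz tumors. Cd3e was named here for its role, with its values known.

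Per length of exon, Ccl21a had the highest median level in sgCon tumors, at 57.0 CPM per kb. It was followed by Ltb at 35.1, Glycam1 at 34.1, Ccr7 at 13.1 and Cxcl13 at 8.75 CPM per kb. Below these came Ccl19 at 6.58, Cxcr5 at 3.41, Lta at 0.999, Madcam1 at 0.767 and Chst4 at 0.263 CPM per kb. The ranges over the 5 sgCon tumors overlapped for every pair of neighbours in this order. In sgTaz tumors the median of Glycam1 and of Chst4 was 0, and Ltb, with 11.1 CPM per kb, was the highest of the 10.

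**Figure D3:**
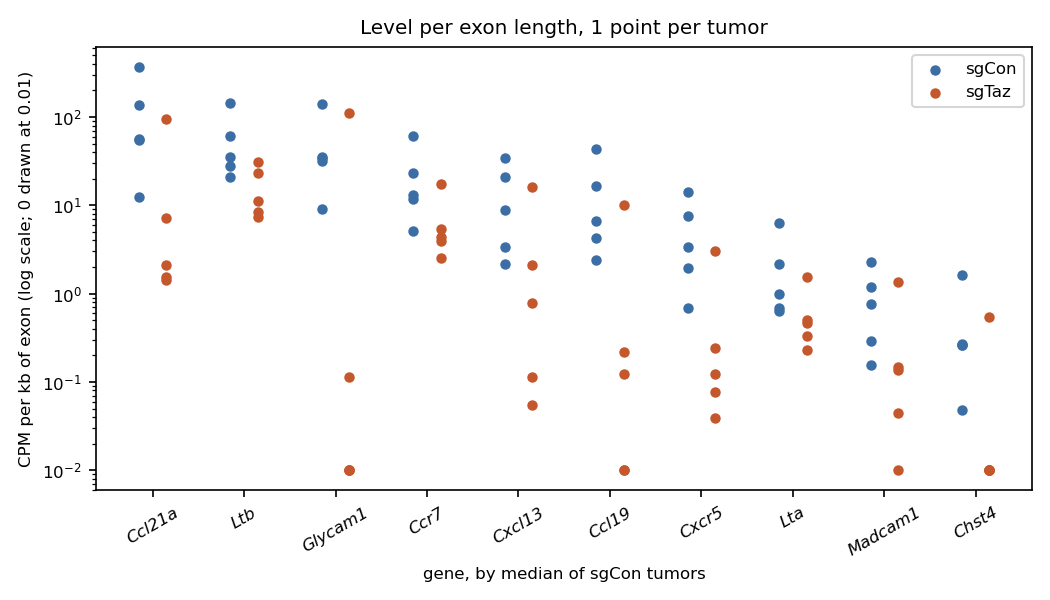
CPM per kb of exon (vertical axis, log scale, a value of 0 drawn at 0.01) for each of the 10 genes in order of their median in sgCon tumors. Each point is 1 tumor. Of the sgTaz tumors, 1 lies within the sgCon range for 8 of the genes, and 2 do for Ltb and Ccr7.

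The pathway that acts on lymphoid stroma was read from a list of 18 signalling genes, of which 8 were higher and 10 lower in sgTaz tumors, 0 passed the test, and the median log2 fold change was -0.051. With sgTaz tumor 5 left out, 2 passed, both lower. Ltbr, the receptor of lymphotoxin, had a log2 fold change of -0.033 (SE 0.095), and Map3k14, the kinase NIK that it activates, of -0.12 (SE 0.12). Relb, the partner of p52, had -0.38 (SE 0.20, adjusted p = 0.290, edgeR), with 35.1 to 78.6 CPM in sgCon tumors and 31.7 to 42.0 CPM in sgTaz tumors. Nfkb2, which encodes p52, had -0.23 (SE 0.098, adjusted p = 0.201, edgeR), and Tnfrsf1a, a receptor of TNF and soluble lymphotoxin, had 0.17 (SE 0.073, adjusted p = 0.204, edgeR), both with an unadjusted p below 0.05. Ltbr, Map3k14, Nfkb2 and Tnfrsf1a were picked for their role with their values known. The 2 genes of the list with the lowest values were genes of lymphocytes: Tnfrsf13c, the BAFF receptor of B cells, with -3.36 (SE 0.92, adjusted p = 0.101, edgeR), and Il7r, the interleukin 7 receptor, with -1.93 (SE 0.48, adjusted p = 0.0960, edgeR). Both were past the test without sgTaz tumor 5, with -4.59 for Tnfrsf13c (adjusted p = 0.0450) and -2.50 for Il7r (adjusted p = 0.0410, edgeR for both). With all 10 tumors there were 2 genes higher and 3 lower in this list at an unadjusted p below 0.05.

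Of 19 genes of high endothelium and homing, 17 were tested, 7 were higher and 10 lower, 0 passed, and the median was -0.093. Itgb7, the β7 chain that pairs for binding of MAdCAM-1, had -1.57 (adjusted p = 0.142, edgeR), and Gcnt1, an enzyme of mucin sugar chains, -0.62 (adjusted p = 0.353, edgeR). Itgb7 is expressed by lymphocytes. At an unadjusted p below 0.05 there were 2 genes lower, Itgb7 among them, and 0 higher. When sgTaz tumor 5 was left out, the median was -0.14 and 1 gene passed, lower, with Itgb7 at -2.02 (adjusted p = 0.0796, edgeR).

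Among 14 genes of reticular and follicular dendritic stroma, 6 were higher and 8 lower, 0 passed, and the median was -0.21. Cr2, a complement receptor of follicular dendritic cells and B cells, had 4.83 to 107 CPM in sgCon tumors, 0 counts in sgTaz tumors 1 and 2, 0.804 and 0.162 CPM in sgTaz tumors 3 and 4, and 34.9 CPM in sgTaz tumor 5. Fcer2a, the IgE receptor CD23 of the same cells, had 326 counts in sgTaz tumor 5 and 20 or fewer in each other sgTaz tumor. Bst1, a surface enzyme of stromal and myeloid cells, had another layout, with 39.7 to 70.2 CPM in sgCon tumors and 24.8 to 34.4 CPM in sgTaz tumors and no overlap, sgTaz tumor 5 included. Its log2 fold change was -0.82 (SE 0.14, adjusted p = 0.0824, edgeR). At an unadjusted p below 0.05 there were 3 genes higher and 2 lower in this list, Bst1 among the latter. The 3 higher were Vcam1, an adhesion molecule of reticular and other activated stroma, with 0.57 (SE 0.18, adjusted p = 0.118, edgeR), Fcgr2b, an inhibitory receptor for IgG, with 0.57 (SE 0.20, adjusted p = 0.150, edgeR), and Pdgfrb, a growth factor receptor of fibroblasts and pericytes, with 0.44 (SE 0.18, adjusted p = 0.192, edgeR). The other lower gene was Clu, which encodes clusterin, with -0.57 (SE 0.13, adjusted p = 0.0960, edgeR). These 4 genes were named after their values were seen. Cr2, Fcer2a and Bst1 passed without sgTaz tumor 5, with -7.20 for Cr2 (adjusted p = 0.0410), -6.25 for Fcer2a (adjusted p = 0.0429) and -0.87 for Bst1 (adjusted p = 0.0417, edgeR for all), and the median of the list was -0.22. The values of Cr2 and Fcer2a depend on the prior count, as these genes were near 0.

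Lymphatic endothelium, another source of CCL21, was read from 9 genes, of which 8 were tested, 2 higher and 6 lower, with a median of -0.59 and 0 past the test. Reln had -1.99 (adjusted p = 0.170, edgeR), Ackr2, a chemokine scavenger, -1.35 (adjusted p = 0.149, edgeR), and Prox1, the transcription factor of lymphatic identity, -0.85 (adjusted p = 0.446, edgeR). Prox1 was at 0.111 to 2.06 CPM in sgCon tumors and 0.321 to 1.67 CPM in sgTaz tumors, so that the groups overlapped over most of their range. Reln and Ackr2 had an unadjusted p below 0.05. The median without sgTaz tumor 5 was -1.10, with 0 past the test. Of 9 genes that position lymphocytes, 8 were tested and 8 were lower, with a median of -1.07 and 0 past the test. All are receptors except Klf2, a transcription factor, which is named for that reason. S1pr4 had -2.49 (adjusted p = 0.101, edgeR), Ccr6 -2.0 (adjusted p = 0.323, edgeR) and Gpr183 -1.20 (adjusted p = 0.160, edgeR), and 5 of the 8 had an unadjusted p below 0.05. Leaving out sgTaz tumor 5 gave a median of -1.35 and 1 gene past the test, Ccr6 with -5.28 (adjusted p = 0.0429, edgeR). With DESeq2 and all 10 tumors, the number called lower was 2 among signalling genes, 1 in the homing list and 0 among lymphatic genes. In the list of lymphocyte positioning 2 were lower, S1pr4 (-2.47, adjusted p = 0.0218) and Klf2 (-1.12, adjusted p = 0.0158, DESeq2 for both). The reticular list had 2 lower, Bst1 (-0.80, adjusted p = 0.00014) and Clu (-0.55, adjusted p = 0.0058, DESeq2 for both). In the reticular list 1 gene was called higher (Vcam1, 0.59, adjusted p = 0.0336, DESeq2).

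Genes of B cells and T cells, like the 10 genes, were highest in sgCon tumor 3 among sgCon tumors and in sgTaz tumor 5 among sgTaz tumors when summed. The 10 B cell genes, with Cd79a as the most abundant, summed to 158, 240, 976, 80.6 and 462 CPM in sgCon tumors 1 to 5. In sgTaz tumors 1 to 5 they summed to 9.80, 9.17, 28.9, 17.2 and 218 CPM. The order of the sgCon tumors was that of the chemokines, and sgTaz tumor 5 lay above 2 of the 5 sgCon tumors, where for the chemokines it lay above 3. All 10 were lower in sgTaz tumors (median -2.92), 10 at an unadjusted p below 0.05 and 0 past the test, with Blk at 0 in sgTaz tumor 1 and Ms4a1 at 0 in sgTaz tumor 2. Blk had -3.29 (adjusted p = 0.142) and Cd79a -3.22 (adjusted p = 0.148, edgeR for both). Of the 10, 8 were past the test without sgTaz tumor 5 (median -5.48), with -5.55 for Blk (adjusted p = 0.0437) and -5.89 for Cd79a (adjusted p = 0.0410, edgeR for both).

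The 10 T cell genes, with Cd8a as the most abundant, summed to 303, 291, 1244, 163 and 576 CPM in sgCon tumors 1 to 5. In sgTaz tumors 1 to 5 they summed to 158, 113, 130.1, 114 and 328 CPM. Against the order of the chemokines, sgCon tumors 1 and 2 changed places. No T cell gene was at 0 in any tumor, and the 10 were all lower in sgTaz tumors (median -1.96), 9 at an unadjusted p below 0.05 and 0 past the test. Lef1 had -2.91 (adjusted p = 0.0960), Cd4 -2.26 (adjusted p = 0.125) and Tcf7 -2.19 (adjusted p = 0.101, edgeR for all), 3 genes that are high in CD4+ or naive T cells. Without sgTaz tumor 5 the median was -2.49 and 1 of the 10 was past the test, Lef1 with -3.88 (adjusted p = 0.0410, edgeR). With all 10 tumors DESeq2 called 5 of the T cell genes lower and 0 of the B cell genes. The part of these cells in the result for the 10 genes was not tested.

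**Figure D4:**
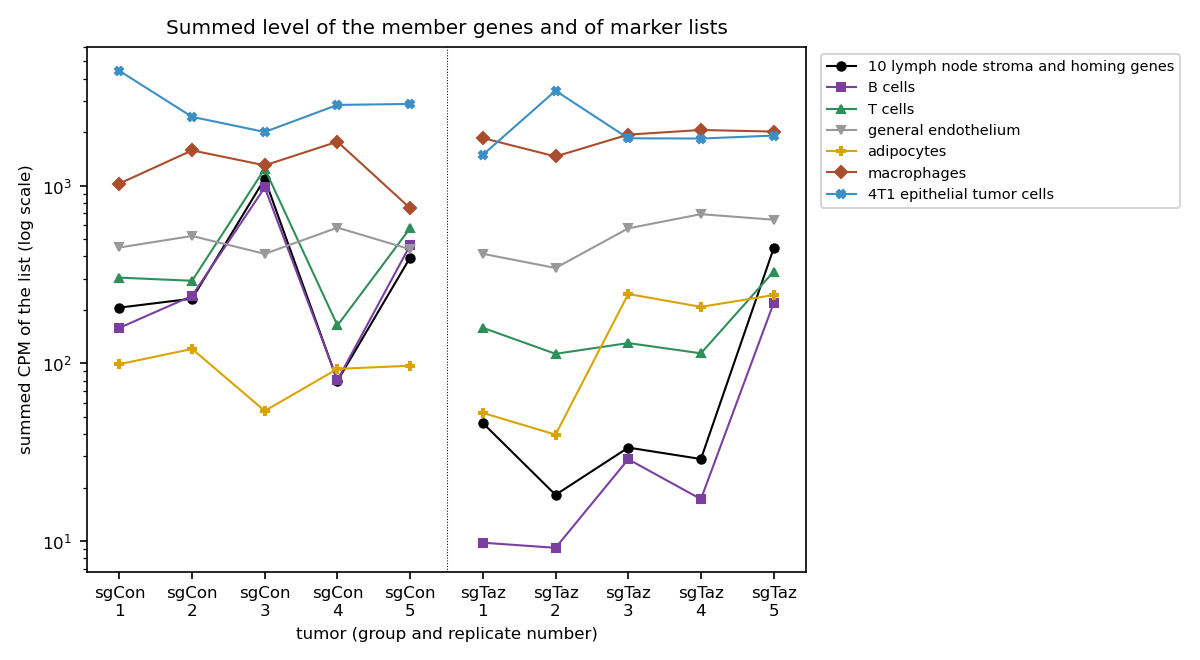
Summed CPM (vertical axis, log scale) of the 10 lymph node stroma and homing genes and of 6 marker lists in each tumor (horizontal axis), lines joining the tumors of a group only to guide the eye. The 10 genes, the B cell genes and the T cell genes rise at sgCon tumors 3 and 5 and at sgTaz tumor 5, while the endothelial sum stays between 344 and 691 CPM.

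Blood vessels in general did not have this layout. The 8 genes of general endothelium, with Pecam1 as the most abundant, summed to 413 to 580 CPM in sgCon tumors and 344 to 691 CPM in sgTaz tumors, with 6 higher, 2 lower and 0 past the test, also at an unadjusted p below 0.05 and with DESeq2. Kdr had 0.34 (adjusted p = 0.441), Cdh5 0.31 (adjusted p = 0.473) and Vwf 0.30 (adjusted p = 0.660, edgeR for all).

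Genes of mature dendritic cells, which also carry CCR7, were 4 higher and 4 lower (median -0.091), with Fscn1 as the most abundant and 0 past any of these tests. Of these, Ccl22 had -0.90 (adjusted p = 0.511), Ccl17 0.41 (adjusted p = 0.481) and Flt3 -0.39 (adjusted p = 0.766, edgeR for all). Ccl22, a chemokine, and Flt3, a receptor of dendritic cell growth, had the sgCon tumors in the order 4, 1, 2, 5 and 3 and sgTaz tumor 5 as the highest sgTaz tumor, as 8 of the 10 genes had. Their values changed sign without sgCon tumor 3 (0.15 for each), and were -1.77 for Ccl22 and -1.23 for Flt3 without sgTaz tumor 5. Ccl17 had another order of the sgCon tumors. Without sgTaz tumor 5, 0 genes were past the test in the lists of dendritic cells, general endothelium, adipocytes, milk genes, 4T1 epithelial cells, macrophages and neutrophils.

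Tissue of the fat pad was read from adipocyte and milk genes. The adipocyte genes, with Fabp4 as the most abundant, summed to 98.9, 121, 54.0, 93.1 and 97.0 CPM in sgCon tumors 1 to 5. The sgTaz tumors 1 to 5 had 52.6, 39.7, 246, 208 and 242 CPM. In sgTaz tumors 3, 4 and 5 the sum of the 10 genes was 33.6, 29.0 and 443 CPM. The part of fat pad tissue in the result for the 10 genes was not tested. Plin1 had 1.91 (adjusted p = 0.285), Adipoq 1.48 (adjusted p = 0.328) and Cfd 1.42 (adjusted p = 0.361, edgeR for all), with 6 of 6 genes tested higher, 0 at an unadjusted p below 0.05 or with DESeq2, and Plin1 at 0 in sgTaz tumor 2.

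The 5 milk genes in the table, with Csn3 as the most abundant, summed to 2.58, 4.25, 17.0, 1.94 and 6.51 CPM in sgCon tumors 1 to 5, which is the order of the sgCon tumors in the chemokines. The sums in sgTaz tumors 1 to 5 were 2.35, 1.29, 11.0, 5.50 and 9.46 CPM, with the highest value in sgTaz tumor 3, in which Glycam1 had 0 counts. Csn1s2a was at 0 in 7 of the 10 tumors, sgTaz tumor 5 and sgCon tumors 1, 4 and 5 among them. The part of milk-producing cells in the level of Glycam1 was not tested. Csn3, the one tested, had a log2 fold change of 0.14 (adjusted p = 0.911, edgeR).

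Genes of tumor cells and myeloid cells were read in the same way, and their sums overlapped between the groups. The 4T1 epithelial genes, with Krt8 as the most abundant, summed to 2002 to 4418 CPM in sgCon tumors and 1490 to 3416 CPM in sgTaz tumors, with 8 of 8 lower, 5 at an unadjusted p below 0.05, 0 past the test and 2 with DESeq2, and Krt14 had -1.15 (adjusted p = 0.100), Cldn7 -0.93 (adjusted p = 0.236) and Krt19 -0.83 (adjusted p = 0.129, edgeR for all). Macrophage genes, with C1qa as the most abundant, were 7 of 7 higher with 5 at an unadjusted p below 0.05, 0 past the test and 3 with DESeq2, and summed to 746 to 1765 CPM in sgCon tumors and 1458 to 2054 CPM in sgTaz tumors. Adgre1 had 0.99 (adjusted p = 0.114), Mrc1 0.83 (adjusted p = 0.136) and Csf1r 0.65 (adjusted p = 0.101, edgeR for all). Neutrophil genes, with Mmp9 as the most abundant, were 6 of 6 lower with 3 at an unadjusted p below 0.05, 0 past the test and 0 with DESeq2, and summed to 357 to 1142 CPM in sgCon tumors and 216 to 645 CPM in sgTaz tumors. S100a8 had -1.44 (adjusted p = 0.124), S100a9 -1.37 (adjusted p = 0.134) and Cxcr2 -0.96 (adjusted p = 0.153, edgeR for all). In S100a8 and Cxcr2 sgTaz tumor 5 was the highest sgTaz tumor and the other 4 lay below every sgCon tumor, as in most of the 10 genes, but sgCon tumor 3 was not the highest sgCon tumor. In the summed epithelial and macrophage genes sgTaz tumor 5 was not the highest sgTaz tumor. The part of these cells in the result was not tested.

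The genes most like the group were found by correlating log2 CPM over the 10 tumors with the mean of the standardized log2 CPM of the 8 genes tested. These tumors share a group structure in which this mean is lower in sgTaz tumors 1 to 4 than in every other tumor. The lowest of the other tumors was sgCon tumor 4. The correlations are therefore a description. The closest was H2-Ob (Pearson's r = 0.993, Spearman's rho = 0.988), an antigen presentation gene of B cells, followed by Serpina1b (r = 0.992), Ptprcap (r = 0.992), Icosl (r = 0.990) and Atp2a3 (r = 0.989). The next were Spib (r = 0.989, rho = 1), Ripor2 (r = 0.989), Cd37 (r = 0.989) and St8sia1 (r = 0.987). H2-Ob had 4.33 to 54.8 CPM in sgCon tumors, 0.710 to 1.98 CPM in sgTaz tumors 1 to 4 and 9.90 CPM in sgTaz tumor 5. Of these genes, Spib also stands in the list of B cells.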

How the data were processed

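RNA of 10 whole tumors was extracted with Trizol and sequenced on an Illumina HiSeq. Per the methods, the authors mapped reads to mm10 (GRCm38 in the labels) with STAR in its two-pass mode and a GENCODE annotation, ran RSeQC on the alignments and took gene counts from featureCounts of Subread. The submitters' processing notes also name CASAVA. The deposited values are these raw counts of the authors, without normalization, for 17864 genes. Tool versions, the strand setting and the handling of reads with several matches are not given in the sources used here. The table holds 5 further columns, which match no sample and were not used. Nothing states that the tumors came from separate mice, so p-values measure the spread between these samples. Within each group, every pair of tumors differed by more than sampling noise.

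Identifiers were matched to GENCODE M21 (17860 of 17864). Counts were tested in R 4.3.3 with edgeR 4.0.16 (TMM, filterByExpr by group, glmQLFit and glmQLFTest, group as the single term, Benjamini-Hochberg adjustment over 14816 genes). An adjusted p below 0.05 is called past the test. Log2 CPM has a prior count of 2. An exact two-sided permutation test of mean log2 CPM was run for every gene tested and adjusted in the same way. Alternatives were DESeq2 1.42.0, limma 3.58.1 (voom, with quality weights per sample), size factors by RLE or by the upper quartile, no filter, a mean of at least 10 counts, a prior count of 0.5, the replicate number as a block and each tumor left out in turn. Tables and figures were made in Python 3.11.15 with pandas 2.3.3 and matplotlib 3.10.9. The scripts were tested on simulated data. Promoters are RefSeq's (GRCm38.p6), the 250 bases before each start, found for 8 of the 10 genes.

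The 10 genes and the 14 lists of other genes were chosen with earlier results of these data known. Named from each list are up to 3 genes with a mean of at least 1 CPM and the largest absolute log2 fold change, and in addition the 10 genes most like the group, Wwtr1, and paralogs of the 10 genes. Genes outside this rule are marked in the text or are the most abundant or undetected gene of a list. Nkx2-3, Wap and Lao1, entries of the lists, were not analysed here. Some genes that the rule names are not reported here.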

Additional observations from a re-analysis of the deposited data

Results flagged for a closer look

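In 12 of 120 groups of 5 tumors, over 60 genes, 1 value was separated from the 4 others by Dixon's ratio, and 10 of the 12 concern sgTaz tumor 5. For genes chosen without regard to their values, chance gives about 6.0. The 60 genes include the 10 lymph node stroma and homing genes, the genes chosen as most like them and list genes chosen for large changes, so that the count cannot be read against chance. Values are log2 CPM with a prior count of 2. Among the 10 lymph node stroma and homing genes, sgTaz tumor 5 was at 3.158 for Ccl19 with the other sgTaz tumors from -3.01 to -1.67. It was at 7.887 for Glycam1 with the others from -3.01 to -1.45, and at 0.4446 for Chst4 with all others at -3.01, the value of a count of 0.

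Among the genes most like the group, it was at 3.271 for Serpina1b (others -0.054 to 0.73), 2.213 for Ptprcap (others -0.38 to 0.19), 4.54 for Icosl (others 2.99 to 3.42) and 5.469 for Atp2a3 (others 2.99 to 3.60). Among genes of the lists, it was at 5.662 for Il7r (others 3.77 to 4.02), 2.499 for Ccr6 (others -2.49 to -1.81) and 5.428 for Tcf7 (others 3.45 to 4.01). The remaining 2 values came from other tumors. Prox1 was at -2.089 in sgCon tumor 4 (others 0.47 to 1.13), and Cldn7 was at 5.985 in sgTaz tumor 2 (others 3.97 to 4.54). The cause of these values was not tested.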

How the results depend on the processing

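Over 241 alternative values of the 8 genes tested and of Wwtr1, none changed direction, 230 stayed on their side of the threshold and 11 came to pass it. All come from the same tumors, most of them with 1 tumor left out, so that they are not separate checks. Of the 11, 4 came without sgTaz tumor 5 and support nothing. The number of genes called moved with the tool. Against 1 gene higher and 0 lower with edgeR (1461 and 1765 at an unadjusted p below 0.05), DESeq2 called 527 higher and 558 lower, and limma-voom 686 and 860. With no filter 0 were higher (1759 unadjusted). Each tumor left out in turn gave 0 to 42 genes higher and 0 to 130 lower, with most without sgTaz tumor 5 (42 and 130) and without sgTaz tumor 2 (40 and 35). The cause was not tested.

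With limma-voom, the log2 fold change was -5.06 for Ccl19, -3.77 for Ccl21a, -1.65 for Ltb, -8.07 for Glycam1 and -3.67 for Cxcr5, each past the threshold. The values of Ccl19 and Glycam1 depend on the small count added before the log, as both were near 0 in sgTaz tumors 1 to 4. With edgeR and all tumors, Glycam1 had -1.18. Wwtr1 passed with DESeq2 (-0.58) and with limma-voom (-0.59), but not with edgeR and all tumors. With each tumor left out it lay between -0.70 and -0.52 and did not pass (adjusted p = 0.0859 to 0.233, edgeR). Left out in turn, the tumors gave -7.17 to -1.83 for Ccl19, -5.41 to -1.60 for Ccl21a, -4.12 to -1.20 for Cxcl13, -2.47 to -0.87 for Lta, -2.20 to -1.16 for Ltb, -10.89 to -0.32 for Glycam1, -2.47 to -0.96 for Ccr7 and -5.46 to -2.27 for Cxcr5. The lowest of each came without sgTaz tumor 5 and the highest without sgCon tumor 3. Other genes reversed without sgCon tumor 3 (Ccl22, range -1.77 to 0.15, and Flt3, range -1.23 to 0.15) and without sgTaz tumor 5 (Vwf, range -0.0035 to 0.48). Csn3 turned to -0.031 with the replicate block, and to -0.0063, -0.055 and -0.39 without sgCon tumor 1, sgCon tumor 4 and sgTaz tumor 3 (range -0.39 to 0.49).

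Both groups carry numbers 1 to 5, but the deviations of same-numbered tumors correlated at -0.24 to 0.22, and 1 of 10 tumors correlated best with its own number, so that the numbers did not pair the tumors. With the replicate block, 0 of 14816 genes tested were higher and 0 lower (1064 higher and 1398 lower at an unadjusted p below 0.05). Of the 8 genes, 0 passed and 8 had an unadjusted p below 0.05, against 4 without the block, with a median of -3.31 against -1.85. The block moved Glycam1 to -6.45, Ccl19 to -4.55 and Cxcl13 to -3.0. As the numbers did not pair the tumors, the block has no basis in the design, and nothing is read from these values. Depth limits Madcam1 and Chst4, with at most 60 counts, and the shared sequence of Ccl19 and Ccl21a limits their levels.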

Other observations

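The lymphotoxin genes gave 1 further layout. Ltb stood at 1.83 to 2.55 counts per count of the T cell gene Cd3e in the sgCon tumors, at 2.51 in sgTaz tumor 1 and at 1.13 to 1.59 in the other sgTaz tumors. In sgTaz tumor 1 the level of Ltb, 35.3 CPM, lay within the range of the sgCon tumors, while Lta, with 5 counts, was lower than in any other tumor. The count of Ltb per count of Lta was 111 in this tumor and 19.6 to 56.0 in the others. These values were noticed after the data were seen and were not tested.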
